A study of Mus musculus with 2 samples.

Results

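The Hox genes of the upper gut were followed across the esophagus, the gastro-esophageal squamo-columnar junction (GE-SCJ) and the stomach of C57BL/6 wild-type mice. Members were all genes of the deposited matrix whose symbol is Hox followed by a cluster letter and a number, without antisense or opposite-strand names. This gave 23 of 19550 genes, with 8 in the Hoxa cluster, 7 in Hoxb, 4 in Hoxc and 4 in Hoxd. Single cells came from embryos at day 15 (E15) and day 19 (E19), from pups aged 2 days and from adults aged 8 weeks, all untreated. The mice of a region and stage were pooled under 1 multiplexing tag, so each of the 11 groups is 1 sample without replicates. No test between groups was therefore possible, and the adult stomach was not analysed here. Groups held 143 to 1403 of the 7808 cells and 2302227 to 20070615 unique molecular identifiers (UMIs), with a median of 4956 to 15676 UMIs per cell. Levels are given as CPM, the usual scaling to library size, computed here from the pooled UMIs of a cell class in 1 region at 1 stage. As 1 UMI stands for 1 captured 3′ end whatever the length of the transcript, CPM can be set side by side between genes per molecule. Ranges in parentheses after a level are exact 95% Poisson intervals. Ratios are log2 ratios of CPM with 1 UMI added to each sum and a 95% interval computed from those sums. Both cover counting error only and say nothing of the spread between mice.

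Hox genes encode homeodomain transcription factors that give cells a position along the head-to-tail axis. Within a cluster, the genes at the 3′ end (low paralog numbers) are switched on first and reach furthest toward the head, while genes with higher numbers begin further back. In the gut they act chiefly in the mesoderm, and Hoxa5 is known for its role in patterning the stomach and the respiratory tract. They bind DNA together with TALE homeodomain partners of the Meis, Pbx and Pknox families, and retinoic acid and Cdx factors are among their best-known regulators.

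In GENCODE M21 on GRCm38, the members lay on the minus strand of chromosome 6 (Hoxa), at chr11:96281905-96354012 on the plus strand (Hoxb), at chr15:102967443-103036852 on the plus strand (Hoxc) and at chr2:74697727-74748442 on the plus strand (Hoxd). Hoxd3 and Hoxd4 share 388 exon bases on 1 strand, 13.2% of the exon bases of Hoxd4, so the split of reads between them is uncertain. Promoters of 13 members were found in the RefSeq table for GRCm38.p6, and the 250 bases before the start were searched on both strands. CCAAT, the letters of the CCAAT box, occurred in 7 of the 13 members and in 33.8% of 32851 promoters. TTTATNG, the core of a Cdx site, occurred in 2 of 13 and in 9.81% of all. AGGTCA, the hexamer bound by retinoic acid receptors and other nuclear receptors, occurred in 5 of 13 and in 14.0% of all. The windows shown here belong to members picked by their levels in fibroblasts. Hoxa5 (chr6:52204588-52204837, minus strand) was called against the esophagus at E15, E19 and in pups. Hoxb8 (chr11:96281655-96281904, plus strand) was undetected in E19 esophageal fibroblasts. Hoxb4 (chr11:96318017-96318266, plus strand) had similar levels in fibroblasts of all regions at E15 and E19, though not in neural or squamous cells. Capitals mark a match, which for Hoxa5 is CCAAT read on the other strand, for Hoxb4 AGGTCA read on the other strand, and for Hoxb8 TTTATNG at 3 places and CCAAT at 1.
Hoxa5: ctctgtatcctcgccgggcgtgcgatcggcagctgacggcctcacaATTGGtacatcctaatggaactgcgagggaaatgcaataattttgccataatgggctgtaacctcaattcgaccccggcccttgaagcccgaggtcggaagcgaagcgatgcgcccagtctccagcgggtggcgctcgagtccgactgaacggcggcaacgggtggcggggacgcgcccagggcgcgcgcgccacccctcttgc
Hoxb8: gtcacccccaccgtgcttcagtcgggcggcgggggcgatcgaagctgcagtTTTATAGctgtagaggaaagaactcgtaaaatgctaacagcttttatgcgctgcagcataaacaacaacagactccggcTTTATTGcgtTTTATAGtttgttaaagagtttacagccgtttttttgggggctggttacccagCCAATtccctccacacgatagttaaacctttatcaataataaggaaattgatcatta
Hoxb4: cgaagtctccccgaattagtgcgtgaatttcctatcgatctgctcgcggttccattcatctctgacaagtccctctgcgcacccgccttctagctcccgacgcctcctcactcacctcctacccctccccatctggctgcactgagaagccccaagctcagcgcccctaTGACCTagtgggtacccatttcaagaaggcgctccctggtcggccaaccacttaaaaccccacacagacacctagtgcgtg

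A match describes letters only, and the data hold no measurement of binding at these windows.

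Hox transcripts were most frequent in the mesenchymal and neural classes and least frequent in columnar epithelium. Summed over the 23 members, fibroblasts (the deposited stromal label) held 13232 Hox UMIs in 3442 cells, a level of 408 CPM (401 to 415). Smooth muscle stood at 458 CPM (446 to 471), neural cells at 446 CPM (425 to 468) and endothelium at 264 CPM (241 to 289). Squamous epithelium held 169.8 CPM (162 to 178), columnar epithelium 17.9 CPM (16.6 to 19.2) and immune cells 37.5 CPM (31.5 to 44.2). The second stromal label, whose mesothelial markers Upk3b, Msln, Wt1 and Lrrn4 summed to 1841 CPM against 7.64 CPM in fibroblasts, had the highest summed level at 549 CPM (510.0 to 590.0). The classes carried the markers of their labels: 5 fibroblast genes summed to 17386 CPM in fibroblasts, 4 smooth muscle genes to 34272 CPM in smooth muscle and 5 neural genes to 1665 CPM in neural cells.

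The mix of clusters that gave the Hox transcripts differed between some of the classes. In fibroblasts, Hoxa genes gave 44.1% of the Hox UMIs, Hoxb genes 51.2%, Hoxc genes 4.32% and Hoxd genes 0.370%, and smooth muscle had a similar mix with 46.0%, 47.9%, 5.89% and 0.181%. In squamous cells pooled over regions and stages, Hoxc genes gave 73.4% (71.3 to 75.5, exact Clopper-Pearson interval). The Hoxd share reached 19.3% (17.4 to 21.2) in neural cells and 33.2% (28.9 to 37.7) in endothelium. Hoxc8, a gene known from the thoracic skeleton and motor neurons, stood at 37.0 CPM (33.4 to 40.8) in squamous cells and at 0.308 CPM (0.148 to 0.567) in fibroblasts. These pooled levels mix stages unequally. Squamous Hoxc8 was at 2.93 CPM in esophagus and 1.86 CPM in GE-SCJ at E19, and at 38.0 and 119 CPM in adults. Of the 3442 fibroblasts, 31 were from adult esophagus and 15 from adult GE-SCJ. Hoxd3 was at 56.6 CPM (49.2 to 64.8) in neural cells and at 0.370 CPM (0.191 to 0.646) in fibroblasts, and Hoxd8 was at 61.8 CPM (50.8 to 74.4) in endothelium and at 1.08 CPM (35 UMIs) in fibroblasts. Pooled over regions and stages, each of these 3 genes had its highest level in the class named first and under 2 CPM in fibroblasts.

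**Figure D1:**
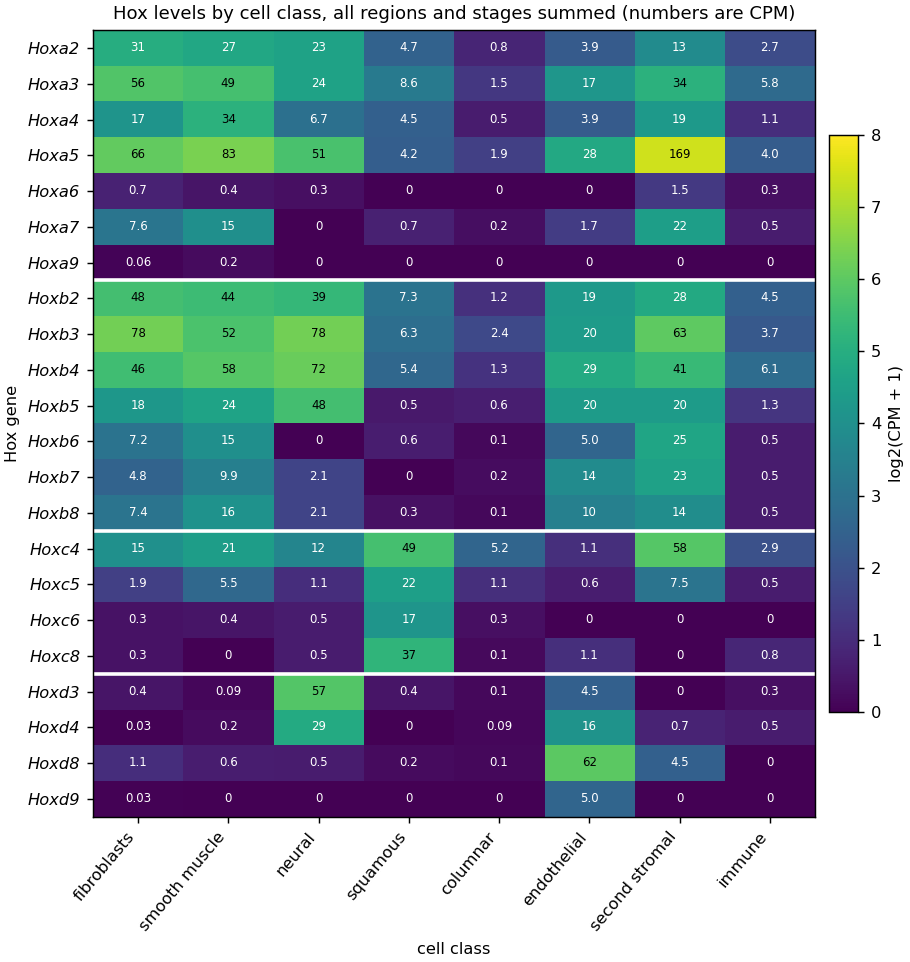
Level of Hox genes from paralog group 2 upward (rows, ordered by cluster and paralog number, with white lines between clusters) in each cell class (columns), as CPM over all regions and stages, coloured by log2(CPM + 1). Hoxa2 to Hoxa5 and Hoxb2 to Hoxb5 filled the mesenchymal columns, Hoxc4 to Hoxc8 the squamous column (Hoxc8 at 37.0 CPM), Hoxd3 the neural column (56.6 CPM) and Hoxd8 the endothelial column (61.8 CPM).

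Fibroblasts gave the deepest view of the axis. The 23 members each had at least 1 UMI there, and 17 had 20 or more. As a check of the dissection, Barx1, a homeobox gene of stomach mesenchyme, stood at 64.8 CPM in E15 esophagus, 362 CPM in GE-SCJ and 576 CPM in stomach, and at 40.1, 330.1 and 393 CPM at E19. Nkx3-2 and Gata4, listed for the same check, were less clear. Nkx3-2 had 0, 0 and 4 UMIs at E15 and 0 in each region at E19. Gata4 was at 5.77, 15.1 and 11.8 CPM at E15 and at 5.16, 6.64 and 10.9 CPM at E19.

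The low-numbered Hox genes were nearly level along the axis. Hoxb3, which acts in hindbrain and pharyngeal patterning, was at 94.0 CPM (84.5 to 104) in E15 esophageal fibroblasts, 91.3 CPM (81.9 to 101) in GE-SCJ and 73.1 CPM (64.8 to 82.2) in stomach. At E19 it was at 86.0, 71.7 and 65.9 CPM, and in pups at 63.7, 48.3 and 38.1 CPM. The esophagus was the highest region for Hoxb3 at these stages, with an E15 interval that overlapped that of GE-SCJ but not that of stomach, and the log2 ratio of stomach over esophagus was -0.36 (-0.59 to -0.13) at E15, -0.38 (-0.56 to -0.20) at E19 and -0.70 (-1.58 to 0.14) in pups. Hoxa3, needed for the thymus and parathyroid, held 58.3, 55.2 and 71.5 CPM at E15 and 55.5, 51.2 and 52.8 CPM at E19 from esophagus to stomach. Hoxb4, known in blood stem cells, held 41.2, 43.5 and 52.9 CPM at E15 and 41.6, 49.7 and 46.6 CPM at E19. Hoxb2 and Hoxa2, genes of hindbrain and branchial arch identity, lay between 42.0 and 54.8 CPM and between 24.7 and 37.7 CPM over the same 6 groups. For these 5 genes, every log2 ratio between regions at E15 and E19 lay within 1 of zero.

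Group 4 showed the first step. Hoxa4, a gene of cervical vertebral identity, was at 11.3 CPM (43 UMIs) in E15 esophagus, 25.5 CPM (96 UMIs) in GE-SCJ and 26.7 CPM (102 UMIs) in stomach, and at 8.88, 17.0 and 19.7 CPM at E19. The esophagus was lowest at both stages, while GE-SCJ and stomach lay close together, with a log2 ratio of stomach over GE-SCJ of 0.07 (-0.35 to 0.48) at E15 and 0.21 (-0.18 to 0.60) at E19. Hoxc4, its paralog in the Hoxc cluster, was at 10.2, 26.8 and 17.3 CPM at E15 and at 5.44, 23.6 and 14.7 CPM at E19. The GE-SCJ was the highest of the 3 regions for Hoxc4, with a log2 ratio over esophagus of 1.37 (0.83 to 1.93) at E15 and 2.09 (1.57 to 2.64) at E19.

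Hoxa5 stood apart from these. In E15 fibroblasts it was at 17.6 CPM (13.6 to 22.3) in esophagus, 131 CPM (119.7 to 143) in GE-SCJ and 64.4 CPM (56.6 to 73.0) in stomach. At E19 it was at 3.87 CPM (2.55 to 5.63), 124 CPM (115 to 133) and 79.6 CPM (72.9 to 86.7), and in pups at 1.59 CPM (0.0403 to 8.87), 76.2 CPM (51.4 to 109) and 60.5 CPM (39.8 to 88.0). The order esophagus, stomach, GE-SCJ held at all 3 stages, with the last 2 regions separated beyond their counting intervals at E15 and E19 but not in pups. In adults, 31 esophageal fibroblasts held no Hoxa5 UMI (3 UMIs would give 18.6 CPM) and 15 GE-SCJ fibroblasts held 15 UMIs, or 128 CPM (71.6 to 211). The log2 ratio of GE-SCJ over esophagus was 2.88 (2.51 to 3.27) at E15, 4.95 (4.41 to 5.55) at E19 and 4.63 (2.65 to 7.74) in pups, where it rested on 1 esophageal UMI. In the same fibroblasts, the 4 mesothelial genes of the second stromal class, where Hoxa5 was also high, summed to 5.77, 9.82 and 10.2 CPM at E15 and to 3.30, 10.8 and 8.32 CPM at E19 from esophagus to stomach. The 4 smooth muscle genes summed to 1394, 1144 and 760.1 CPM at E15 and to 2348, 2325 and 2429 CPM at E19 and did not follow the order of Hoxa5 at either stage. The mesothelial genes were lowest in esophagus at both stages and at E19 had the same order of regions as Hoxa5. The part of RNA from these cells in the Hox ratios was not tested.

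Hoxa7 was highest in the GE-SCJ, with few UMIs on either side. It held 2.10 CPM (8 UMIs) in E15 esophagus, 32.9 CPM (124 UMIs) in GE-SCJ and 2.10 CPM (8 UMIs) in stomach, and 0.287, 14.7 and 1.36 CPM at E19. Esophagus and stomach could not be told apart at E15, with 8 UMIs each, while the stomach lay below the GE-SCJ by a log2 ratio of -3.81 (-4.98 to -2.84) at E15 and -3.30 (-4.41 to -2.35) at E19. In pups, with 8 UMIs in GE-SCJ against 1 and 2 in the other regions, it was under the count needed for a call. Its transcripts were unevenly spread over cells: at E19, the 6 GE-SCJ fibroblasts with most Hoxa7 UMIs held 32.1% of them, against 7.90% for Hoxa5. Hoxd8 had 17 of its 35 fibroblast UMIs in E15 GE-SCJ (4.51 CPM), against 0 in esophagus and 2 in stomach at that stage. Hoxa6, which lies between Hoxa5 and Hoxa7, had 9 UMIs in E15 GE-SCJ, 0 in esophagus and 2 in stomach.

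The 5′ genes of the Hoxb cluster were lowest in the esophagus and higher in both other regions. Hoxb5, a gene of the vagal neural crest and of gut mesoderm, was at 9.71 CPM (37 UMIs), 33.7 CPM (127 UMIs) and 17.3 CPM (66 UMIs) at E15 and at 4.01, 27.4 and 21.6 CPM at E19. Hoxb6 was at 1.05, 14.3 and 5.24 CPM at E15 and at 0.573, 14.5 and 9.38 CPM at E19. Hoxb7 was at 1.05, 7.69 and 3.14 CPM at E15 and at 0.143, 8.22 and 9.07 CPM at E19. The esophagus was lowest for all 3 genes, and the stomach lay nearer to the GE-SCJ at E19 than at E15, with a log2 ratio of stomach over GE-SCJ for Hoxb7 of -1.22 (-2.29 to -0.24) at E15 and 0.14 (-0.43 to 0.71) at E19. Hoxb8, whose promoter window held the 3 TTTATNG letters, was at 0.525 CPM (2 UMIs) in E15 esophagus, 14.3 CPM (54 UMIs) in GE-SCJ and 7.33 CPM (28 UMIs) in stomach. At E19 it had 0 UMIs in 739 esophageal fibroblasts, 66 UMIs (11.5 CPM) in GE-SCJ and 83 UMIs (12.6 CPM) in stomach. Against the level that 3 UMIs would give in the esophagus, this was at least 26.8-fold higher in GE-SCJ and at least 29.2-fold higher in stomach. The remaining members were too sparse to place: Hoxc5 reached 5.04 CPM in E15 GE-SCJ, and Hoxc6, Hoxc8, Hoxd3, Hoxd4, Hoxd9 and Hoxa9 stayed under 1 CPM in every E15 and E19 group.

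**Figure D2:**
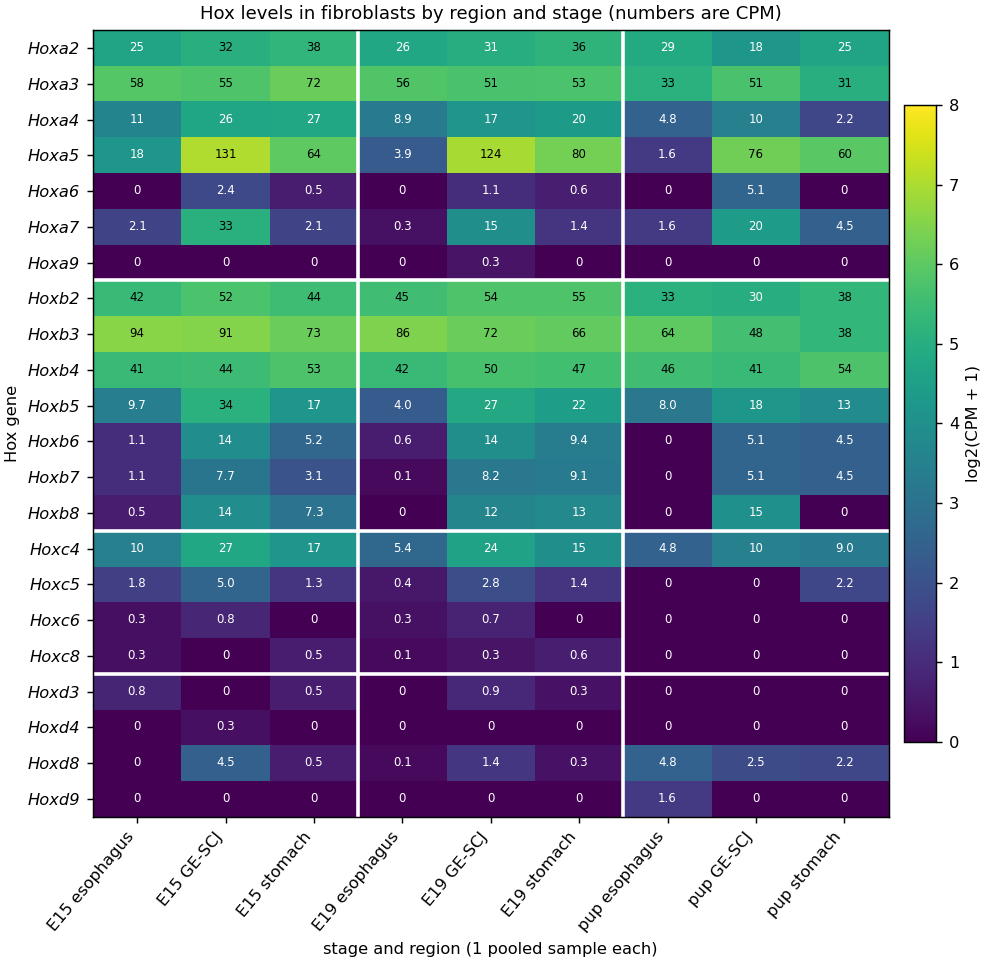
Level of Hox genes from paralog group 2 upward (rows) in fibroblasts of each stage and region (columns, 1 pooled sample each), with the CPM written in each field and coloured by log2(CPM + 1). Rows such as Hoxb3 kept similar shades across regions, Hoxa5 was dark in the esophagus (17.6, 3.87 and 1.59 CPM) and bright in GE-SCJ (131, 124 and 76.2 CPM), and Hoxa7 was bright in the GE-SCJ columns alone.

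A gene was called between regions where both groups held at least 20 cells and together 20 UMIs, and the ratio was 2-fold or more. Members that passed this count only through the region where they were high had to differ, so the counts are a description. Between GE-SCJ and esophagus, 10 of the 15 members with enough UMIs were called higher in GE-SCJ at E15 (among them Hoxa5, Hoxa7, Hoxb5, Hoxb6, Hoxb7, Hoxb8 and Hoxc4), where 3.51% of all genes were. At E19, 8 of 14 were, against 6.70% of all genes, and in pups Hoxa5 alone of 6, against 3.68%. Between stomach and esophagus, 4 of 11 were higher in stomach at E15 (Hoxa4, Hoxa5, Hoxb6 and Hoxb8; 4.45% of all genes), 7 of 13 at E19 (6.46%) and Hoxa5 alone of 6 in pups (5.48%). Between stomach and GE-SCJ, 5 of 15 were lower in stomach at E15 (Hoxa5, Hoxa7, Hoxb6, Hoxb7 and Hoxc5; 1.32%), Hoxa7 alone of 15 at E19 (1.34%) and none of 5 in pups (2.66%). In these 9 comparisons, no member was called in the opposite direction. These comparisons share samples, so they are not independent of each other. The median log2 ratio of the members with enough UMIs was 1.37 at E15 and 1.61 at E19 for GE-SCJ over esophagus, beside 0.05 and 0.12 over all genes. For stomach over esophagus it was 0.74 and 1.13, beside 0.11 and 0.14. These medians also include members that passed the count only through the region where they were high. They are therefore a description too, and no difference from all genes is read from them.

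**Figure D3:**
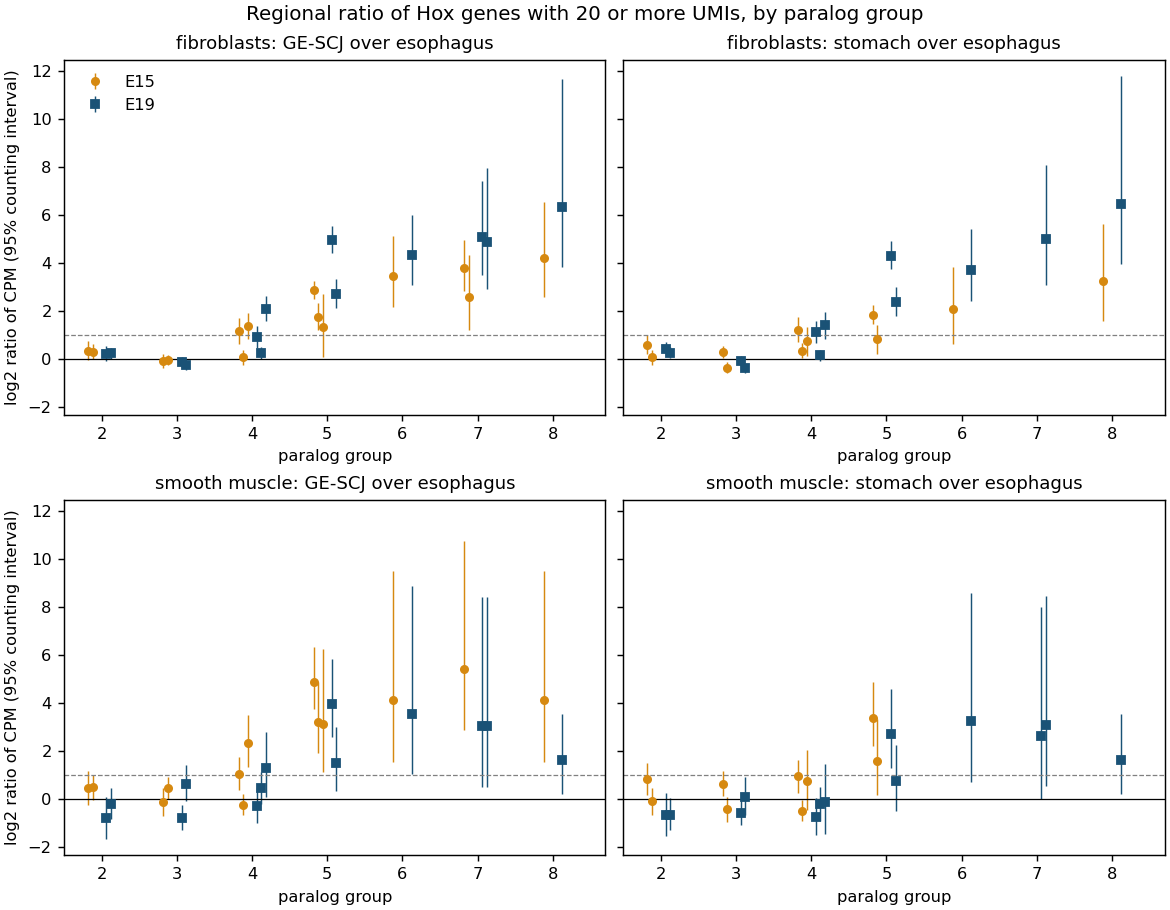
Log2 ratio of GE-SCJ (left) and stomach (right) over esophagus in fibroblasts (top) and smooth muscle (bottom) against paralog group. Members from group 2 upward with 20 or more UMIs over both regions are shown. Points are pooled samples at E15 and E19, bars 95% counting intervals and the dashed line a 2-fold ratio. With 1 UMI added to each sum, points of genes without esophageal UMIs depend on that addition. Groups 2 and 3 lay near 0 in fibroblasts, and every GE-SCJ ratio of fibroblasts from group 5 upward lay above the dashed line (Hoxa5 2.88 and 4.95). Members with almost no esophageal UMIs, such as Hoxb8, reached 20 UMIs only through the other region and had to lie there. No pattern by paralog group is read from them.

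The mean paralog number over all Hox UMIs, which uses every member, gave the same order of regions. In fibroblasts it was 3.23 ± 0.03 (counting SE) in E15 esophagus, 4.13 ± 0.03 in GE-SCJ and 3.60 ± 0.03 in stomach. At E19 it was 3.01 ± 0.02, 4.02 ± 0.03 and 3.77 ± 0.03, and in pups 3.21 ± 0.10, 4.12 ± 0.14 and 3.74 ± 0.12. The GE-SCJ was highest at each stage. Groups 5 to 9 gave 10.8% of the Hox UMIs in E15 esophagus, 42.7% in GE-SCJ and 23.9% in stomach, and 3.53%, 40.7% and 31.8% at E19. Hoxa5 alone gave 494 of the 930 UMIs of groups 5 to 9 in E15 GE-SCJ and 709 of 1184 at E19. The mean and the shares of groups 5 to 9 are therefore not independent of Hoxa5, and their values without it were not tested. Counted by cell, with each cell thinned to 5000 UMIs and shallower cells left out (25 to 35 per group at E15, 49 to 83 at E19), 8.70% of E15 esophageal fibroblasts (28 of 322, 5.86 to 12.3) held a UMI of groups 5 to 9. In GE-SCJ this was 61.4% (199 of 324, 55.9 to 66.7) and in stomach 32.0% (104 of 325, 27.0 to 37.4). At E19 the shares were 2.66%, 57.5% and 40.8%. Without thinning they were 19.3%, 76.3% and 46.1% at E15 and 4.87%, 72.3% and 55.5% at E19. For groups 1 to 4, by contrast, the thinned shares lay between 70.0% and 81.5% in all 6 groups. Immune cells, which should lack most of these transcripts, held a UMI of groups 5 to 9 in 0% to 6.56% of thinned cells over the E15 and E19 groups with 20 such cells, and of groups 1 to 4 in 4.76% to 18.2%. The share in E19 esophageal fibroblasts lay within the range of the immune cells at the same 5000 UMIs (0 of 21 in E19 esophagus), so no expression is read from this share alone. The E15 esophageal share of 8.70% lay within the interval of the highest immune share (1.82 to 15.9).

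Within a region, 1 or 2 members were called between successive stages. In esophageal fibroblasts, 2 of 9 members were called between E15 and E19, against 5.97% of all genes: Hoxa5 was lower at E19 by a log2 ratio of -2.15 (67 UMIs at E15 and 27 at E19) and Hoxb5 by -1.26 (-2.01 to -0.53). In GE-SCJ, Hoxa7 (-1.16, -1.57 to -0.75) and Hoxd8 (-1.60, -2.94 to -0.37) were called lower among 16, against 4.26%. In stomach, Hoxb7 was called higher among 13 (1.44, 0.56 to 2.43), against 5.88%. With 1 or 2 calls per region, no difference from the share of all genes is read. From E19 to the pup, 1 of 9 members was called in esophagus (Hoxb5, higher), against 23.2% of all genes. In GE-SCJ 1 of 14 was called, against 22.8%, and in stomach Hoxa4 and Hoxb8 were called lower among 12, against 21.7%. Each of these 4 calls rested on 0 to 5 UMIs in the pup, and no difference from all genes is read from them.

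The same comparisons were made in fibroblasts for the TALE partners of the Hox genes, the ParaHox genes and the noncoding transcripts of the clusters. Of the 9 TALE genes, 8 had enough UMIs at E15 and 9 at E19, and none was called between GE-SCJ and esophagus or between stomach and GE-SCJ at these stages. Between stomach and esophagus, 1 of 8 was called higher in E15 stomach (Pbx3, 89.3 against 38.6 CPM), where 4.45% of all genes were. In E19 stomach 2 of 9 were called lower (3.90% of all genes), among them Pbx4 (10 against 23 UMIs). In pups, 1 of 6 was called higher in GE-SCJ than in esophagus (Meis1, 282 against 137 CPM), where 3.68% of all genes were. Another 1 was called lower (Pknox1, 6 against 22 UMIs), where 4.59% of all genes were. With 1 or 2 calls per comparison, no difference from the share of all genes is read. Of 6 ParaHox genes listed, Pdx1 and Cdx2 had a row, and neither reached 20 UMIs in fibroblasts. Of 7 noncoding transcripts in or beside the clusters, 5 had enough UMIs at E15 and E19. At both stages, 2 of 5 were called higher in GE-SCJ than in esophagus (3.51% of all genes at E15 and 6.70% at E19) and 2 of 5 higher in stomach than in esophagus (4.45% and 6.46%), while 0 of 5 were called between stomach and GE-SCJ. Hoxb5os, an opposite-strand transcript at Hoxb5, was at 2.89, 10.3 and 8.64 CPM at E15 and at 1.29, 10.7 and 11.8 CPM at E19 and thus lowest in esophagus at both stages. Hotairm1, a noncoding RNA of the Hoxa cluster, was at 16.0, 35.0 and 30.1 CPM at E15 and at 14.6, 36.4 and 31.8 CPM at E19. Hoxb3os was called in 1 comparison, higher in E15 stomach than in esophagus (11.5 against 4.99 CPM). The strand setting of the count is not given in the sources used here, so reads of opposite-strand pairs may not be fully separated.

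In smooth muscle, Hoxa5 had the same order of regions as in fibroblasts, lowest in esophagus and highest in GE-SCJ. Hoxa5 was at 4.41 CPM (1.43 to 10.3) in E15 esophageal smooth muscle, 158 CPM (139 to 177) in GE-SCJ and 55.0 CPM (44.3 to 67.6) in stomach. At E19 it was at 6.49, 134 and 55.9 CPM, in pups at 8.72, 87.8 and 53.7 CPM, and in adults at 5.83 CPM in esophagus and 131 CPM in GE-SCJ. The log2 ratio of GE-SCJ over esophagus was 4.90 (3.76 to 6.36) at E15 and 3.96 (2.59 to 5.85) at E19. Hoxa7 had no UMI in esophageal smooth muscle at any stage. It had 64 UMIs (36.9 CPM) in E15 GE-SCJ, at least 14.0-fold above the level of 3 esophageal UMIs, and 11 UMIs (6.65 CPM) in stomach. At E19 the stomach (12.9 CPM, 8.38 to 19.1) came close to the GE-SCJ (17.8 CPM, 12.9 to 24.0), while in pups 18 UMIs in GE-SCJ stood against 1 in stomach.

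The low-numbered genes were present in all 3 regions. Hoxb4 was at 74.1, 63.5 and 53.2 CPM from esophagus to stomach at E15 and at 47.6, 67.4 and 42.5 CPM at E19. Hoxb3 was at 53.8, 74.5 and 40.5 CPM and at 36.8, 60.0 and 40.9 CPM. The highest region was the GE-SCJ for both genes at E19, while at E15 it was the esophagus for Hoxb4 and the GE-SCJ for Hoxb3. Hoxc4 peaked in the GE-SCJ with 7.06, 39.8 and 12.7 CPM at E15 and 10.8, 31.4 and 11.4 CPM at E19. Hoxc5, its neighbour, had 1, 26 and 7 UMIs at E15. For GE-SCJ over esophagus, 8 of 13 members were called higher at E15 (4.98% of all genes), 7 of 13 at E19 (7.27%) and 2 of 5 in pups (Hoxa3 and Hoxa5, each with 1 esophageal UMI; 14.2%). For stomach over esophagus the counts were 2 of 9 (Hoxa5 and Hoxb5; 6.68%), 5 of 13 (6.57%) and 2 of 4 (Hoxa3 and Hoxa5; 14.1%). Lower in stomach than in GE-SCJ were 6 of 14 at E15 (2.59%), Hoxa5, Hoxc4 and Hoxc5 among 14 at E19 (3.09%) and Hoxb5 among 7 in pups (2.32%). No member was called the other way. The esophageal groups were small, with 42 cells at E19 and 22 in pups. The fibroblast genes summed to 3069.9 CPM in smooth muscle, and the part of fibroblast RNA in these levels was not tested.

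Neural cells had another order at E15, with the stomach on top. At E15, Hoxb5 had 0 UMIs in 88 esophageal neural cells, 30.7 CPM (16.8 to 51.5) in GE-SCJ and 141 CPM (118 to 168) in stomach, which was at least 39.2-fold above the level of 3 esophageal UMIs. Hoxa5 was at 1.20 CPM (0.0305 to 6.70), 74.5 CPM (51.6 to 104) and 149.9 CPM (126 to 177). Both genes were lowest in esophagus and highest in stomach, with counting intervals that did not overlap. These intervals leave out the spread between cells: Hoxa5 UMIs came from 9 of 42 cells in GE-SCJ and 26 of 72 in stomach. The low-numbered genes, level in fibroblasts, also differed here: Hoxb3 was at 20.4, 98.7 and 121 CPM and Hoxb4 at 30.1, 89.9 and 114 CPM. Hoxd3 was at 38.5 CPM (26.3 to 54.3), 83.3 CPM (59.0 to 114) and 91.5 CPM (73.2 to 113), and Hoxd4 at 21.7, 19.7 and 53.2 CPM. Hoxa7 and Hoxb6, present in the mesenchyme of GE-SCJ, had no UMI in any of the 419 neural cells.

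At E15, 6 of 7 members were called higher in GE-SCJ than in esophagus (Hoxa2, Hoxa5, Hoxb2, Hoxb3, Hoxb4 and Hoxd3; 3.62% of all genes) and 10 of 10 higher in stomach than in esophagus (4.15%). From GE-SCJ to stomach, Hoxa3, Hoxa4, Hoxb5 and Hoxd4 were called higher in stomach among 11 (3.37%). At E19 the GE-SCJ and the stomach, the regions with 20 cells or more, differed by a call for Hoxd3 alone among 8 (2.47%), at 23.4 CPM (13.1 to 38.6) in GE-SCJ and 71.8 CPM (49.7 to 100.3) in stomach. Hoxa5 was then at 6.23 CPM in GE-SCJ and 16.9 CPM in stomach. The 11 esophageal neural cells of E19, too few for a ratio, held 9 UMIs each of Hoxb3, Hoxb4 and Hoxb5. In pups no member had enough UMIs. The make-up of the class moved with the region. In E15 esophagus, GE-SCJ and stomach, the neuronal gene Elavl4 was at 354, 839.7 and 738 CPM, the glial and progenitor gene Sox10 at 253, 151 and 182 CPM, and Ret at 123, 96.5 and 161 CPM. The 5 fibroblast genes summed to 1074, 208 and 192 CPM, highest where the Hox levels were lowest. The make-up also differed between stages: at E19, Elavl4 was at 339.8 CPM in GE-SCJ and 243 CPM in stomach, and Sox10 at 279 and 276 CPM. The part of the neuron-to-glia mix in the Hox ratios and in the E19 levels was not tested.

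**Figure D4:**
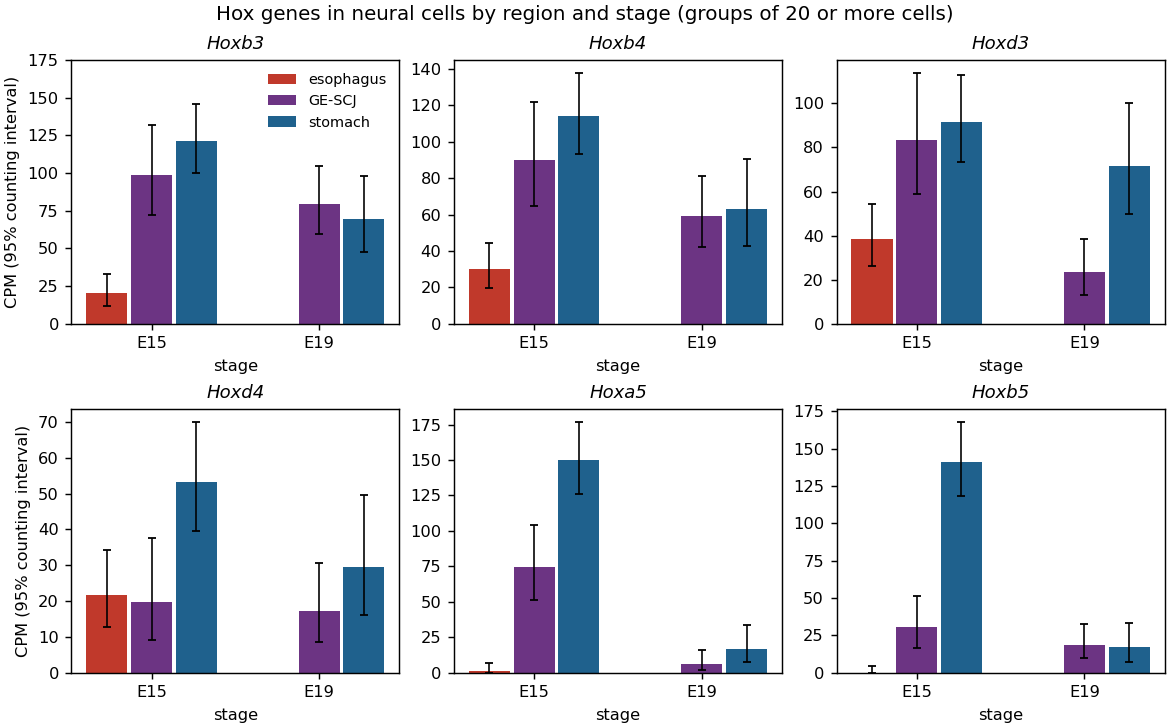
CPM of 6 Hox genes in neural cells by stage (x axis) and region (colour), 1 pooled sample per bar, with exact 95% Poisson intervals; groups under 20 cells are left out, which removes the E19 esophagus. At E15 the stomach bar was the tallest for each gene (Hoxb5 141 CPM, Hoxa5 149.9 CPM), and the Hoxa5 and Hoxb5 bars were under 20 CPM at E19.

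Squamous epithelium, here both deposited squamous labels joined, was compared between esophagus and GE-SCJ. The part of the label mix in the differences between groups was not tested. The regions differed in the Hoxc share of the squamous Hox UMIs. In esophagus the share was 42.9% (78 of 182 UMIs) at E15, 32.9% (71 of 216) at E19, 38.0% (30 of 79) in pups and 78.6% (444 of 565) in adults. In GE-SCJ it was 89.4% (168 of 188), 72.5% (29 of 40), 96.6% (112 of 116) and 94.2% (387 of 411). The GE-SCJ share was the higher of the pair at each stage, and the Hoxc genes gave the larger part of the Hox UMIs in every group but the esophagus before adulthood. Hoxc8 was at 3.05 CPM (0.630 to 8.92) in E15 esophagus and 19.9 CPM (11.8 to 31.5) in GE-SCJ, and at 2.93 and 1.86 CPM at E19. In pups it had 0 UMIs in 85 esophageal cells against 61 UMIs (91.1 CPM, 69.7 to 117) in 46 GE-SCJ cells, at least 29.5-fold above the level of 3 UMIs. In adults it was at 38.0 CPM (31.6 to 45.4) and 119 CPM (102 to 137), with a log2 ratio of 1.64 (1.30 to 1.98). The GE-SCJ was thus higher at E15, in pups and in adults, while both regions were under 3 CPM at E19, where the GE-SCJ held 34 cells. Hoxc5 was at 9.16 CPM against 53.1 CPM at E15, 5.85 against 5.57 CPM at E19, 2.06 against 29.9 CPM in pups and 26.8 against 36.7 CPM in adults. Hoxc4, the member with most squamous UMIs, was at 55.0 against 77.4, 24.6 against 40.8, 18.5 against 34.3 and 55.2 against 68.9 CPM, higher in GE-SCJ at each stage but by less than 2-fold. Hoxc6 was at 12.2 against 35.4 CPM at E15, 8.19 against 5.57 CPM at E19, 10.3 against 11.9 CPM in pups and 18.4 against 25.1 CPM in adults.

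The Hoxa and Hoxb genes that were called were higher in the esophagus. Hoxb3 was at 25.4 CPM (16.5 to 37.6) in E15 esophageal squamous cells and 1.11 CPM (0.0280 to 6.16) in GE-SCJ, and Hoxb2 at 20.4 and 2.21 CPM. At E19, Hoxb4 had 25 UMIs (14.6 CPM) in esophagus and 0 in GE-SCJ, and Hoxa3 was at 20.5 and 7.42 CPM. Of 7 members with enough UMIs at E15, Hoxc5, Hoxc6 and Hoxc8 were called higher in GE-SCJ and Hoxb2 and Hoxb3 lower (9.11% of all genes called in either direction). At E19, Hoxa3, Hoxb2 and Hoxb4 were called lower among 4 (13.2%), in pups Hoxc5 and Hoxc8 higher among 3 (24.4%), and in adults Hoxc8 higher and Hoxa3 lower among 8 (8.30%). Fibroblast RNA differed between these groups: the 5 fibroblast genes summed to 1439 CPM in E15 esophageal and 242 CPM in GE-SCJ squamous cells, to 906 and 713 CPM at E19, 249 and 202 CPM in pups and 346 and 193 CPM in adults. Its part in the Hoxa and Hoxb differences was not tested. Of Hoxc8, fibroblasts held 10 UMIs in all.

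A noncoding neighbour marked the esophageal side. Halr1, transcribed from chr6:52102949-52113684 on the plus strand outside the Hoxa cluster, was at 58.0 CPM (43.9 to 75.2) in E15 esophageal squamous cells, 56.2 CPM (45.5 to 68.6) at E19, 45.2 CPM (32.9 to 60.7) in pups and 17.1 CPM (12.9 to 22.3) in adults. In GE-SCJ squamous cells it had 3 UMIs (3.32 CPM) at E15, a log2 ratio over esophagus of -3.74 (-5.66 to -2.30), and 0 at E19, in pups and in adults, so that the esophagus was at least 10.1-fold higher at E19, at least 10.1-fold in pups and at least 8.87-fold in adults. Fibroblasts held 0 to 2 Halr1 UMIs in each region and stage. Hotairm1 was at 48.9 against 32.1 CPM at E15, 83.7 against 16.7 CPM at E19, 147 against 40.3 CPM in pups and 17.4 against 5.15 CPM in adults. Of the TALE partners, Meis2 was higher in esophagus (413 against 45.3 CPM at E15, 274 against 50.1 CPM at E19 and 158 against 44.8 CPM in pups), and Meis1 higher in GE-SCJ (61.1 against 138 CPM at E15).

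**Figure D5:**
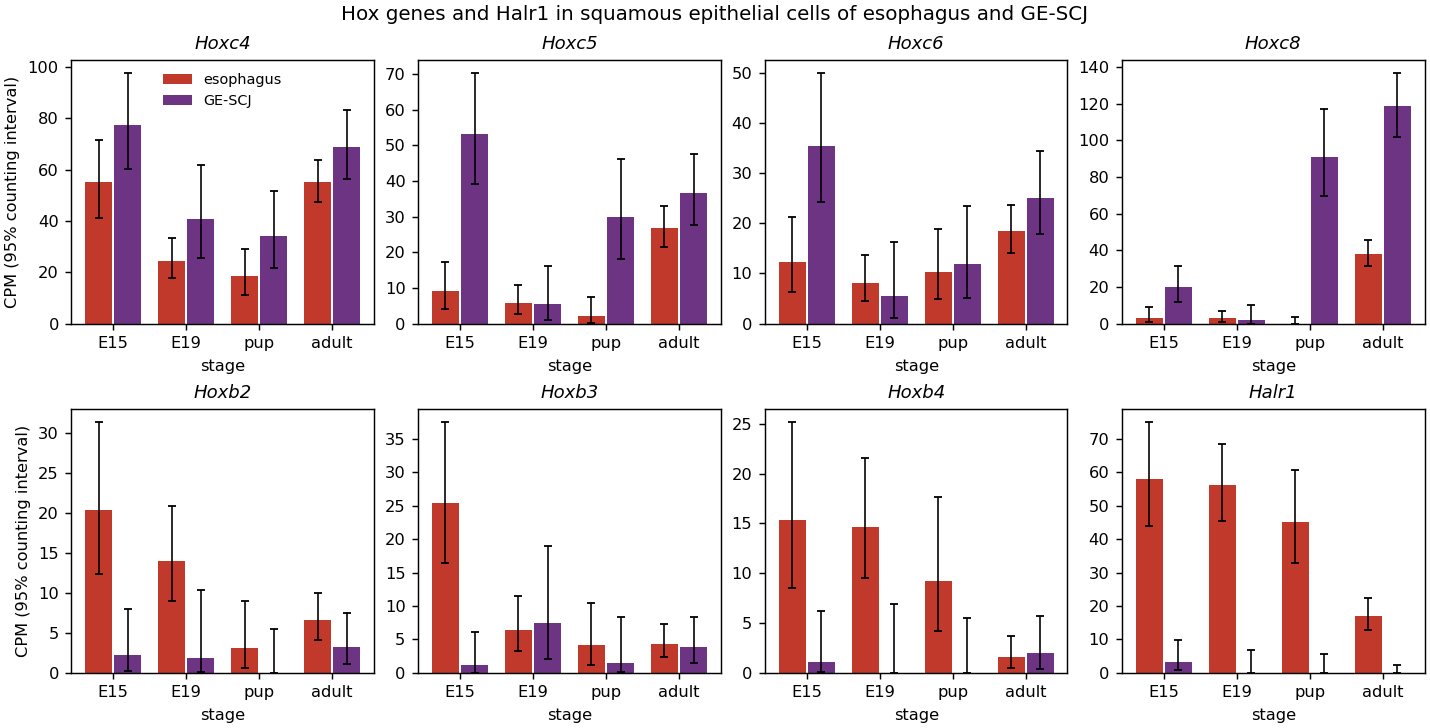
CPM of 7 Hox genes and the noncoding Halr1 in squamous cells of esophagus and GE-SCJ at 4 stages, 1 pooled sample per bar, with exact 95% Poisson intervals. The GE-SCJ bar was the taller for Hoxc8 in pups (91.1 CPM) and adults (119 CPM), while Hoxb4 had no UMI in GE-SCJ at E19 and in pups, nor Halr1 in GE-SCJ from E19 on.

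In columnar epithelium, Hox transcripts were scarce. Summed over the members, they stood at 83.1, 28.9 and 8.79 CPM in GE-SCJ and at 14.8, 16.3 and 7.97 CPM in stomach at E15, E19 and in pups. Hoxc4 was at 40.8 CPM (30.6 to 53.2) in E15 GE-SCJ and 6.22 CPM (3.98 to 9.25) in stomach, at 11.3 CPM (8.98 to 14.1) and 3.25 CPM (2.21 to 4.61) at E19, and at 1.22 and 0.525 CPM in pups. The GE-SCJ was higher at E15 and E19, with log2 ratios of stomach over GE-SCJ of -2.68 (-3.43 to -1.98) and -1.77 (-2.41 to -1.17). Hoxc4 was the 1 member with enough UMIs at E15 (3.31% of all genes lower in stomach), and at E19 Hoxa5, Hoxc4 and Hoxc5 were called lower in stomach among 7 (1.71%), while Hoxb3 was called higher at 3.67 against 1.68 CPM. Hoxa5 was at 10.6 against 1.04 CPM at E15 and at 2.65 against 1.26 CPM at E19 in GE-SCJ and stomach. In pups, neither of the 2 members with enough UMIs was called. The fibroblast genes summed to 595 CPM in E15 GE-SCJ and 239 CPM in stomach, and to 367 and 285 CPM at E19, and their part was not tested. The 20 esophageal columnar cells of E19 carried 3994 CPM of the fibroblast genes and 998 CPM of the squamous genes.

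Endothelium, with 3 to 32 cells per group, was led by Hoxd8. It was at 26.9 CPM (9.87 to 58.5) in E15 esophagus, 48.2 CPM (26.4 to 80.9) in GE-SCJ and 57.8 CPM (32.3 to 95.3) in stomach, and at 10.7 CPM (1.30 to 38.7), 89.4 CPM (60.7 to 127) and 98.0 CPM (65.7 to 141) at E19. The esophagus was lowest at both stages, within overlapping intervals at E15, and as it held under 20 cells no ratio is given. Between stomach and GE-SCJ at E19 the log2 ratio was 0.14 (-0.63 to 0.90). Hoxb4 at 28.6 CPM (21.3 to 37.7) and Hoxa5 at 27.5 CPM (20.4 to 36.4) followed over all groups. Of the 10 Hoxd9 UMIs in the classes described, 9 came from pup endothelium (4 from 3 esophageal cells and 5 from 13 GE-SCJ cells). The second stromal label, present mostly in GE-SCJ and stomach, was led by Hoxa5 at 169 CPM (148 to 193) over all groups, with 156 CPM (124 to 194) in E19 GE-SCJ and 194 CPM (137 to 266) in pup stomach. Hoxb3 at 63.3 CPM (50.6 to 78.3) and Hoxc4 at 58.1 CPM (45.9 to 72.5) came next. In these cells the esophagus was not low in Hoxa5, with 15 UMIs in 4 cells at E15 and 7 UMIs in 6 cells in pups, though the cells are few. Immune cells gave 141 Hox UMIs in 354 cells, led by Hoxb4 at 6.11 CPM (3.87 to 9.17), Hoxa3 at 5.85 CPM (3.66 to 8.85) and Hoxb2 at 4.52 CPM (2.63 to 7.23).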

How the data were processed

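Cells were dissociated with collagenase II and captured with the 10x Genomics 3′ kit and CellPlex tags. The authors made the UMI counts with Cell Ranger multi 6.1.1 on mm10 and removed barcodes by genes, UMIs and mitochondrial share, and these raw counts are what was deposited. For each cell the authors also gave its mitochondrial percent, taken over its UMIs, beside class and tag. Tags and UMI totals matched the matrix in 7808 cells, with 0 repeated barcodes. No further doublets were removed. Of each group, 2 to 51 cells had neighbours mostly from the other side of birth. In adult GE-SCJ these were 24 of 143 cells, against 2 of 672 in E15 GE-SCJ. The adult Hoxa5 level in 15 GE-SCJ fibroblasts was not recomputed without such cells.

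Summed UMIs per class, region and stage gave CPM and log2 ratios (1 UMI added) with 95% counting intervals. The interval of a ratio was computed from the sums with 1 UMI added and is not exact for the counts themselves. Both intervals were tried on simulated Poisson counts, the model that they assume. That trial could not show how they hold where UMIs are unevenly spread over cells. A call needed 20 cells in each group, 20 UMIs over both and a fold of 2. A sum of 0 was set against the level of 3 UMIs. Values are given in full for the 12 members with most fibroblast UMIs, the 3 leading members of each other class, and members called at every stage. Members, marker lists and cofactor lists were chosen with earlier results of these data known. Some members and listed genes are not reported here by name. Alternatives changed the UMI minimum, call rule, class labels, library size, cells kept and members summed. Scripts ran in Python 3.11.15 with pandas 2.3.3, SciPy 1.17.1 and NumPy 2.4.6, neighbours came from scikit-learn 1.9.0 and plots from matplotlib 3.10.9.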

Additional observations from a re-analysis of the deposited data

Results flagged for a closer look

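For 4 members, the ratio between the same regions at the same stage had opposite directions in 2 cell classes, each past a fold of 2. With 1 pooled sample per group the difference between classes was not tested. At E15, the log2 ratio of GE-SCJ over esophagus was 1.19 for Hoxb2 in neural cells and -2.69 in squamous cells. For Hoxb3 it was 2.22 in neural cells and -3.58 in squamous cells. These squamous ratios rested on 2 and 1 GE-SCJ UMIs, and in both classes the esophageal group had the higher summed level of fibroblast genes, whose part was not tested.

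At E15, Hoxb5 had a log2 ratio of stomach over GE-SCJ of -1.62 in smooth muscle and of 2.12 in neural cells. At E19, Hoxc4 had a log2 ratio of stomach over esophagus of 1.41 in fibroblasts and of -2.56 in columnar cells, where the esophageal group held 20 cells with 11 Hoxc4 UMIs and 998 CPM of squamous genes.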

How the results depend on the processing

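Calls summed over stages moved by over 1.5 times mainly with the UMI minimum and the call rule. In fibroblasts, no called ratio of the 12 members with most UMIs reversed, nor did the difference in mean paralog number between GE-SCJ and esophagus. Summed calls were compared by number only, so a reversal in the other classes could not be seen. Of the summary values under an alternative, 105 stayed close to the reported one and 48 moved. The share of all genes called was not computed under the alternatives, so the counts below show only how the number of calls moved. Without a minimum of UMIs, members with almost no UMIs can also be called. Without a minimum of UMIs, the calls became 36 (from 19) for GE-SCJ over esophagus in fibroblasts, 24 (from 12) for stomach over esophagus, 19 (from 6) for stomach below GE-SCJ, 15 (from 9) and 17 (from 10) for the latter pairs in smooth muscle, 13 (from 6) in neural cells at E15, 20 higher and 22 lower (from 6 each) in squamous cells, 33 (from 4) in columnar cells, 13 (from 5) and 36 (from 4) between stages, and 31 (from 13) for cofactors and noncoding transcripts. With a minimum of 50 UMIs they became 11 (from 17), 3 and 6 in smooth muscle, 3 for GE-SCJ over esophagus in neural cells, 3 higher and 0 lower in squamous cells, 2 in columnar cells and 2 from E19 to the pup. With the interval required to lie beyond a fold of 1.5 they became 9, 3 and 6 in smooth muscle, 3, 6 (from 10) and 1 (from 4) in neural cells, 2 lower in squamous cells, and 2 and 0 between stages. Joining fibroblast and smooth muscle labels gave 12 for stomach below GE-SCJ, averaging CPM over cells gave 6 in smooth muscle, and leaving out the 1% of cells with most UMIs of a gene gave 2 in columnar cells and 7 from E19 to the pup. The difference in mean paralog number between GE-SCJ and esophagus was 1.02 at E15 (from 0.90) and 1.16 at E19 (from 1.00) without the member with most UMIs (Hoxb3), and 1.08 at E19 with labels joined. Hoxa5 was not left out in any alternative. The share of fibroblasts with a UMI of groups 5 to 9 was 19.3%, 76.3% and 46.1% unthinned and 5.52%, 35.1% and 18.7% thinned to 2000 UMIs at E15, from esophagus to stomach, and 4.87%, 72.3% and 55.5%, and 0.817%, 31.2% and 21.9%, at E19. The order of regions in these shares was the same at each depth.

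No paired analysis was possible because each group is 1 pooled sample and no test was run. The cause of the moves beyond a changed number of genes or UMIs was not tested. Depth limits the groups with few cells, and mice within a pool cannot be told apart.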
